A study of Mus musculus with 20 samples.

Results

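The genes described here are 1 ligand, 1 receptor, 3 SMADs and the 4 Id genes of the bone morphogenetic protein (BMP) pathway in mouse embryonic stem cells (ESCs). They were found by matching the Ensembl gene IDs of the count tables to mouse symbols and taking Bmp4, Bmpr1a, Smad1, Smad5, Smad6, Id1, Id2, Id3 and Id4. Each symbol matched 1 ID, which gave 9 of the 37991 gene IDs in the tables. All 9 passed the filter on low counts in every comparison. On GRCm38 (GENCODE M21, matched by gene ID) they lie as follows: Bmp4 at chr14:46383520-46390669, Bmpr1a at chr14:34410734-34503341, Smad1 at chr8:79338395-79399518, Smad5 at chr13:56703010-56742377, Smad6 at chr9:63953076-64022059, Id1 at chr2:152736251-152737410, Id2 at chr12:25093799-25097140, Id3 at chr4:136143497-136145755 and Id4 at chr13:48261228-48266026.

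BMP ligands such as BMP4 bind pairs of type I and type II receptors at the cell surface, and the activated type I receptor phosphorylates SMAD1 and SMAD5. These enter the nucleus with SMAD4 and switch on genes that include the Id genes and Smad6, whose product damps the signal. ID proteins bind E proteins and keep them from pairing with other basic helix-loop-helix factors on DNA. In mouse ESCs, BMP signalling through Id genes is known to act with LIF in holding back neural differentiation.

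The study asked what loss of Cnot3, which encodes a subunit of the CCR4-NOT complex that removes poly(A) tails from mRNA, does to RNA levels, polysome association and RNA loss. Conditional Cnot3 knockout (cKO) ESCs received DMSO (called WT) or 0.1 µM 4-hydroxytamoxifen (4OHT; called KO). RNA came from whole cells or from polysomes on day 3, or from whole cells on day 2 at 0, 4 and 8 h of actinomycin D at 10 µg/ml, a drug that blocks transcription. Each of the 10 groups (total, polysome, 0 h, 4 h and 8 h, in WT and in KO) had 2 biological replicates, 20 libraries in all. The labels give C57BL/6 as the strain of every library. They name E14Tg2a ESCs as the source of the 4 WT total and polysome libraries and Cnot3 cKO ESCs as the source of the other 16, whereas the design text describes all WT cells as DMSO-treated cKO cells. On day 3 the genotype effect and a difference between cell lines therefore cannot be told apart, while on day 2 both arms carry the cKO label. The driver of the deletion and the number of clones are not given in the sources used here.

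Gene counts per library ran from 27664391 to 35170012 in total RNA, 13832829 to 16688555 in polysome RNA and 14513891 to 33262905 in the actinomycin D series. Cnot3 RNA in KO was 16.6% of WT in total RNA, 18.3% in polysomes, and 10.8%, 9.49% and 6.42% at 0, 4 and 8 h. The summed level of 8 ESC markers was 6374 to 6982 CPM (read counts scaled for library size by TMM within each experiment) in WT total RNA and 3224 to 3422 in KO. That of 13 trophectoderm markers was 198.0 to 206.5 CPM in WT total RNA and 690.2 to 708.4 in KO, with 11 of 13 called higher. On day 2 at 0 h the same trophectoderm sums were 166.9 to 176.9 in WT and 311.7 to 322.6 in KO, with 11 of 12 tested called higher, and no marker of this list was at 0. The 10 feeder fibroblast markers summed to 35.7 to 39.9 CPM in WT total RNA and 58.4 to 65.1 in KO (7 called higher), with Col3a1, Postn and Dcn at 0 in polysomes. The day 3 total RNA libraries stood apart from the actinomycin D series: of the reads counted, ambiguous or in no annotated gene, 19.8% to 23.7% were in no gene against 5.26% to 8.12%, all unassigned reads made up 41.4% to 43.4% of the tallied reads against 7.61% to 10.5%, and 29568 to 32072 genes had a count against 19537 to 20905. WT polysome replicate 2 stood apart with 5.04% mitochondrial counts, against 0.913% in the lowest polysome library. In bulk RNA, fewer cells of a type and less RNA per cell cannot be told apart, and the part of these markers in the results below was not tested.

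The 3′ UTRs are shown first because the actinomycin D series measures RNA loss and because AU-rich elements in 3′ UTRs are known to recruit deadenylation factors. In the APPRIS principal transcript of each gene (GENCODE M21, GRCm38), the sense strand was searched for ATTTA, for the longer TATTTAT, which contains it, and for TGTANATA. The capitals in the lines below mark TATTTAT in the 3 short 3′ UTRs that hold it.
Bmp4 site, base 227 of 339: accttgacctTATTTATgactttacgt
Bmp4 site, base 285 of 339: ttgacaaataTATTTATaactacatat
Id2 site, base 212 of 783: gtgataccgtTATTTATgagagacttt
Id2 site, base 461 of 783: gctgtgtataTATTTATatataaatat
Smad6 site, base 187 of 448: acaacgtaatTATTTATatatggtgca
Of 3′ UTRs of like length, 8.05% held at least 1 TATTTAT for Bmp4, and 1.10% held as many as its 2. For Id2, 20.1% held at least 1 and 4.19% held as many as its 2, and for Smad6 11.7% held at least 1. The 3′ UTRs of Id1 (397 bases) and Id3 (536 bases) held none of the 3 motifs; an ATTTA was present in 45.3% and 55.0% of 3′ UTRs of their length. Smad1 held 1 TGTANATA and no ATTTA in 1254 bases. Id2 and Bmpr1a also held 1 TGTANATA each, at bases 455 and 3263, as did 16.7% and 52.3% of 3′ UTRs of their length. The long 3′ UTRs of Bmpr1a (3810 bases), Smad5 (4899 bases) and Id4 (3093 bases) held 8, 6 and 9 ATTTA, counts that 41.7%, 74.2% and 24.9% of like-length 3′ UTRs reached. Smad5 and Id4 also held 1 TATTTAT each, at bases 1618 and 1908, as did 66.8% and 55.1% of 3′ UTRs of their length. Id4 held 4 TGTANATA, a count that 1.53% of like-length 3′ UTRs reached. A match is a description of the letters and not evidence of a working site.

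The 250 bases upstream of the RefSeq start are given for Id2, Id3 and Smad6. These are the members with a RefSeq promoter entry (GRCm38.p6, 8 of 9 have one) that were higher in KO at 0 h and in both kinds of day 3 RNA. The Id2 window lies inside the GENCODE span of its gene (chr12:25093799-25097140), as does that of Id3 (chr4:136143497-136145755). Both are thus upstream of the RefSeq start only. Capitals mark GGCGCC or GGAGCC, the GC-rich letters that SMAD1 and SMAD5 are described to bind, on either strand (GGAGCC reads GGCTCC on the other).
Id2, minus strand, chr12:25096093-25096342: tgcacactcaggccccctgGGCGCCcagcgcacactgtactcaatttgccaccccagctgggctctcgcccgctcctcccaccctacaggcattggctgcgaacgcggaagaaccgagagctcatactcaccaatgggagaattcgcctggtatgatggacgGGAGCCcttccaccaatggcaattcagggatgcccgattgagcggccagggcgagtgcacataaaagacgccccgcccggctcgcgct
Id3, plus strand, chr4:136143572-136143821: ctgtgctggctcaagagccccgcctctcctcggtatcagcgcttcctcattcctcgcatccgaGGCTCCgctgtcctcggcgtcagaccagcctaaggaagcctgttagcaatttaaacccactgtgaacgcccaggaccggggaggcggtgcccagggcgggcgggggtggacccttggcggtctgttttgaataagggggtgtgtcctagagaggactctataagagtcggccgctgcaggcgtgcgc
Smad6, minus strand, chr9:64022060-64022309: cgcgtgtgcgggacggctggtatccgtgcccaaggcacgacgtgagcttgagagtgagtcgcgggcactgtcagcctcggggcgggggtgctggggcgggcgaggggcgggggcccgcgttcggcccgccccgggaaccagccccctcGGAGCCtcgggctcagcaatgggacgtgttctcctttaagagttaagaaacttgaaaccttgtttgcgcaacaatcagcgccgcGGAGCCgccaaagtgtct
GGCGCC was present in 9.59% and GGAGCC in 26.0% of 32851 promoter windows, each searched over its 250 upstream bases. They were not particular to the raised genes: GGAGCC was also in windows of Bmp4, which fell in KO, Smad5 and Id4, and GGCGCC in windows of Bmpr1a, Smad5 and Id4. GTCTAGAC, found in 0.167% of windows, was in none of those of the 8 members.

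Levels of different genes were compared per kilobase of annotated exon. Id1 was the most abundant member and Id4 the least in WT and KO, in total RNA on day 3 and at 0 h on day 2. In WT total RNA, Id1 stood at 49.9 CPM per kb, followed by Bmpr1a at 20.4, Id3 at 15.0, Id2 at 11.3 and Bmp4 at 10.2. Smad5 (6.15), Smad1 (3.11), Smad6 (1.57) and Id4 (0.545) came below. The replicate ranges of Id2 and Bmp4 overlapped on this scale, as did those of Smad1 and Smad6 in KO. In KO total RNA the order at the top was Id1 (183.6), Id3 (43.5), Id2 (30.3) and Bmpr1a (18.2).

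**Figure D1:**
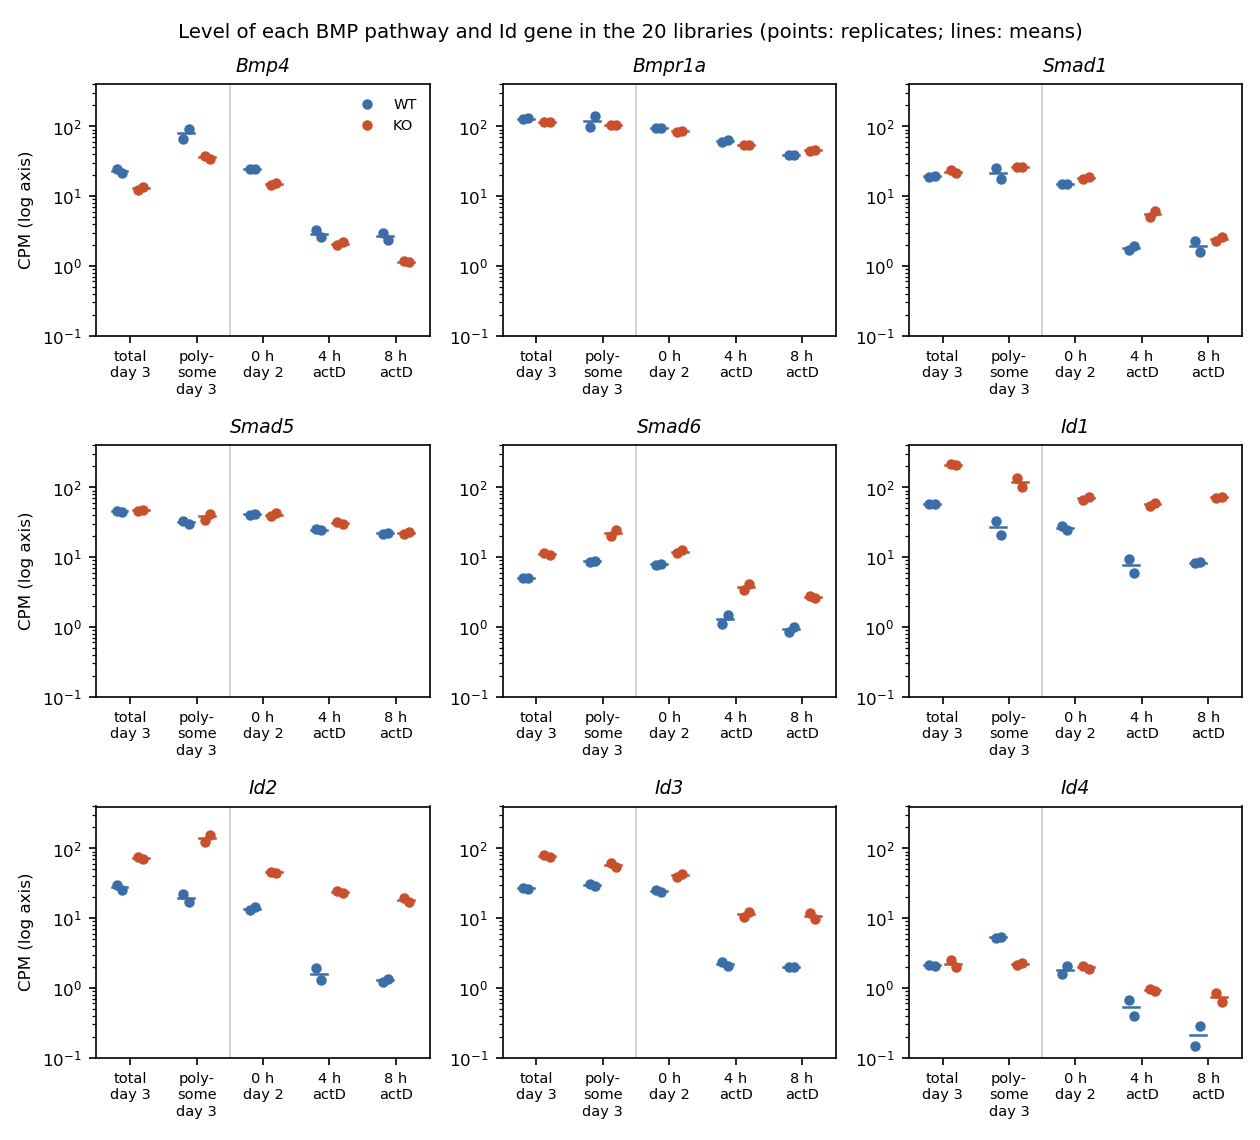
CPM on a log axis of each gene in WT (blue) and KO (orange), for total and polysome RNA on day 3 and for 0, 4 and 8 h of actinomycin D on day 2. Points are the 2 replicates and lines their means. Id1, Id2, Id3 and Smad6 sit higher in KO at every point, and Bmp4 sits lower.

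In total RNA on day 3, Id1, Id2, Id3 and Smad6 rose in KO, Bmp4 fell, and Bmpr1a, Smad1, Smad5 and Id4 did not pass the test. Thus 4 of 9 members were higher and 1 was lower (edgeR quasi-likelihood test, Benjamini-Hochberg adjusted p under 0.05 over 18303 genes). Of all genes tested, 16% were called higher and 12.2% lower (28.2% in either direction). That background of 5156 calls was unstable: it ran from 1289 (without total WT replicate 1) to 9522 (without polysome WT replicate 2) when 1 library was left out, past 1.5 times in 6 of 8 cases, and was 10936 with only the 4 total RNA libraries compared. The members' median log2 difference was 0.21, against 0.01 over all genes. Scaling to library totals alone gave 5179 higher and 908 lower calls in place of 2931 and 2225, moving the median of all genes to 0.28, and DESeq2 gave 1939 and 2691. The 5 called members kept their direction and call under both. The p-values measure the spread between 2 biological replicates per group, pooled over the 8 day 3 libraries.

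Bmp4, the ligand, was at 24.3 and 21.4 CPM in WT total RNA and at 12.3 and 13.7 in KO. Both KO libraries lay below both WT libraries, and the log2 difference was -0.81 ± 0.18 (SE, n = 2 per group; edgeR adjusted p = 0.0077). The adjusted p rose to 0.0709 without total WT replicate 1 and to 0.0675 without total KO replicate 1. In polysomes Bmp4 was at 66.8 and 92.7 CPM in WT and at 37.6 and 34.3 in KO. Again the groups did not overlap. How many of all genes separate in this way was not counted, for Bmp4 or the genes below. Bmpr1a and Smad1 separated in total RNA as well, without passing the test. Gm15217 and Gm15222 are annotated on the other strand over Bmp4, each with a highest count of 10 in any library, and the strand setting used in counting was not stated.

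Bmpr1a, the type I receptor, was at 126.8 and 132.1 CPM in WT total RNA and at 114.5 and 116.4 in KO. The KO values were lower without overlap, but the log2 difference of -0.16 ± 0.17 (SE) did not pass (edgeR adjusted p = 0.489) and turned positive with library totals alone. It passed with only the 4 total RNA libraries compared (-0.17, edgeR adjusted p = 0.0154) and without polysome WT replicate 1 (-0.19, 0.0486) or replicate 2 (-0.19, 0.0477). In polysomes its WT libraries, at 99.1 and 142.9 CPM, enclosed the KO libraries at 103.5 and 104.5. Gm17110, on the strand opposite Bmpr1a, had a highest count of 15.

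Neither transducer, Smad1 nor Smad5, passed on day 3. Smad1 was at 19.1 and 19.8 CPM in WT total RNA and at 23.6 and 21.3 in KO, a log2 difference of 0.21 ± 0.17 (SE; edgeR adjusted p = 0.383). Smad5 was at 46.4 and 44.8 CPM in WT and at 45.7 and 48.2 in KO, which overlap. Neither passed in polysomes (Smad1 0.29, adjusted p = 0.223, and Smad5 0.28, adjusted p = 0.154, both by edgeR), but with library totals alone both did (Smad1 0.55, adjusted p = 0.0304, and Smad5 0.55, adjusted p = 0.0151, by edgeR). With only the 4 total RNA libraries compared, Smad1 passed there (0.20, edgeR adjusted p = 0.0493).

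Smad6, the inhibitory SMAD, was at 5.06 and 5.02 CPM in WT total RNA and at 11.6 and 10.8 in KO. Both KO libraries lay above both WT libraries, with a log2 difference of 1.15 ± 0.17 (SE; edgeR adjusted p = 0.00104). In polysomes it was at 8.53 and 8.90 CPM in WT and at 20.4 and 24.2 in KO, a log2 difference of 1.36 ± 0.17 (SE; edgeR adjusted p = 0.000243).

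Among the 4 Id genes, Id1 showed the widest gap in total RNA. It was at 58.77 and 57.01 CPM in WT and at 218.3 and 207.7 in KO, a KO to WT ratio of 3.68 (log2 1.88 ± 0.22 SE, edgeR adjusted p = 0.000431). Id2 was at 29.5 and 25.7 CPM in WT and at 76.5 and 71.2 in KO, a ratio of 2.67. Id3 was at 27.2 and 26.6 CPM in WT and at 81.2 and 74.5 in KO, a ratio of 2.90. For these 3 genes the lowest KO library lay far above the highest WT library. How many of all genes separate without overlap was not counted. Id4 was at 2.11 and 2.09 CPM in WT and at 2.49 and 1.97 in KO, and its groups overlapped.

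In polysomes 4 of 9 members were higher in KO and 2 were lower, where 15.9% of all genes were called higher and 21.1% lower (37% in either direction). Library totals alone moved the split of calls from 2904 higher and 3859 lower to 4547 and 2000. The members' median log2 difference was 0.29, against -0.08 over all genes. Id2 showed the largest difference of the 9, from 21.9 and 17.2 CPM in WT to 123.4 and 154.6 in KO, a ratio of 7.11 (log2 2.83 ± 0.18 SE, edgeR adjusted p = 1.78e-05). Id1 was at 33.5 and 20.5 CPM in WT and at 138.78 and 100.04 in KO, a ratio of 4.42. Id3 was at 30.6 and 29.1 CPM in WT and at 61.7 and 54.5 in KO, a ratio of 1.95. Id4 went the other way, from 5.28 and 5.36 CPM in WT to 2.16 and 2.24 in KO (log2 -1.27 ± 0.23 SE, edgeR adjusted p = 0.00198). It thus fell in polysomes while its total RNA values overlapped. Without WT polysome replicate 1, Bmpr1a, Smad1 and Smad5 also passed, at log2 differences of -0.46, 0.55 and 0.35.

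Whether the polysome difference exceeded the total RNA difference was tested as the difference of the differences, by edgeR. No member passed, 3 of 9 (Id2, Id3 and Id4) were under an unadjusted p of 0.05, and DESeq2 called 1 (Id2). Of all genes, 0.00546% were called higher and 0.00546% lower (0.0109% together). The largest edgeR values were 1.41 ± 0.24 (SE) for Id2 (adjusted p = 0.207), -1.36 ± 0.32 for Id4 (adjusted p = 0.248) and -0.57 ± 0.19 for Id3 (adjusted p = 0.293). This test rested on the WT polysome libraries, by edgeR: without replicate 1, 4959 genes were called and Bmp4, Id1, Id2, Id3 and Id4 passed, and without replicate 2 Id2 passed (adjusted p = 0.0267).

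On day 2, before actinomycin D had acted, the same 4 genes were already higher in KO, by smaller differences for Id1, Id3 and Smad6, and Bmp4 was already lower. Of the 9 members 5 were higher and 2 were lower, but the background is high: 29.8% of 15823 genes were called higher and 32.9% lower (62.7% together). RLE scaling gave 3537 higher and 6898 lower calls in place of 4718 and 5203, library totals 6619 and 3396, and DESeq2 2681 and 5970. The members' median log2 difference was 0.28, against -0.01 over all genes. Both arms on day 2 are labelled cKO cells.

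At 0 h, Bmp4 was at 24.7 and 24.5 CPM in WT and at 14.5 and 15.4 in KO, a log2 difference of -0.72 ± 0.09 (SE; edgeR adjusted p = 4.08e-09). Bmpr1a was at 93.7 and 96.0 CPM in WT and at 83.2 and 87.2 in KO. This small difference of -0.16 ± 0.05 (SE) passed (edgeR adjusted p = 0.00706), but not without 0 h KO replicate 1 (0.0755) or with library totals alone. Smad1 was at 14.9 and 15.2 CPM in WT and at 17.6 and 19.0 in KO, a log2 difference of 0.28 ± 0.09 (SE; edgeR adjusted p = 0.00863). Its call was lost without 0 h KO replicate 2 (0.0991) or 0 h WT replicate 1 (0.0598), with RLE scaling and in DESeq2. Smad5 was at 40.5 and 41.5 CPM in WT and at 39.3 and 42.5 in KO, which overlap. Its sign followed the scaling, at -0.14 with RLE (edgeR adjusted p = 0.0321) and 0.15 with library totals alone (edgeR adjusted p = 0.0206).

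Smad6 was at 7.72 and 8.07 CPM in WT and at 11.6 and 12.5 in KO at 0 h, a ratio of 1.53. Id1 was at 28.0 and 24.3 CPM in WT and at 66.7 and 72.9 in KO, a ratio of 2.67 (log2 1.42 ± 0.11 SE, edgeR adjusted p = 2.17e-07). Id2 was at 12.9 and 14.4 CPM in WT and at 46.4 and 44.9 in KO, a ratio of 3.34 (log2 1.74 ± 0.08 SE, edgeR adjusted p = 6.97e-21). Id3 was at 25.3 and 23.7 CPM in WT and at 39.2 and 43.4 in KO, a ratio of 1.69. In all 4 genes the KO libraries lay above the WT libraries without overlap, a separation that was not counted over all genes. Id4 was at 1.57 and 2.06 CPM in WT and at 2.07 and 1.86 in KO, which overlap.

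The KO to WT difference in whole-cell RNA was larger on day 3 than on day 2 for Id3 by 0.82 ± 0.10 (log2, SE; edgeR adjusted p = 6.2e-06), for Id1 by 0.49 ± 0.09 (adjusted p = 0.00116) and for Smad6 by 0.58 ± 0.15 (adjusted p = 0.0257). Of all genes tested in this comparison, 2.54% passed in that direction and 2.29% in the other (4.83% together), and 3 of 9 members passed upward. Id2 went the other way, by -0.29 ± 0.11 (SE), which did not pass (edgeR adjusted p = 0.126). With no filter the Id2 value did pass (-0.37, edgeR adjusted p = 0.00601). The Smad6 call was lost with no filter (0.49, edgeR adjusted p = 0.0529) and in DESeq2 (0.53, DESeq2 adjusted p = 0.197). DESeq2 turned the split of 485 and 436 calls to 163 and 346, RLE scaling to 341 and 651, library totals to 1049 and 270, and no filter to 339 and 1243. Smad6 lost its call when any of 6 of the 8 libraries was left out (adjusted p up to 0.140). The days also differ in experiment and, for WT, in the labelled cell source, which cannot be told apart from time. The part of the library differences given at the start was not tested.

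**Figure D2:**
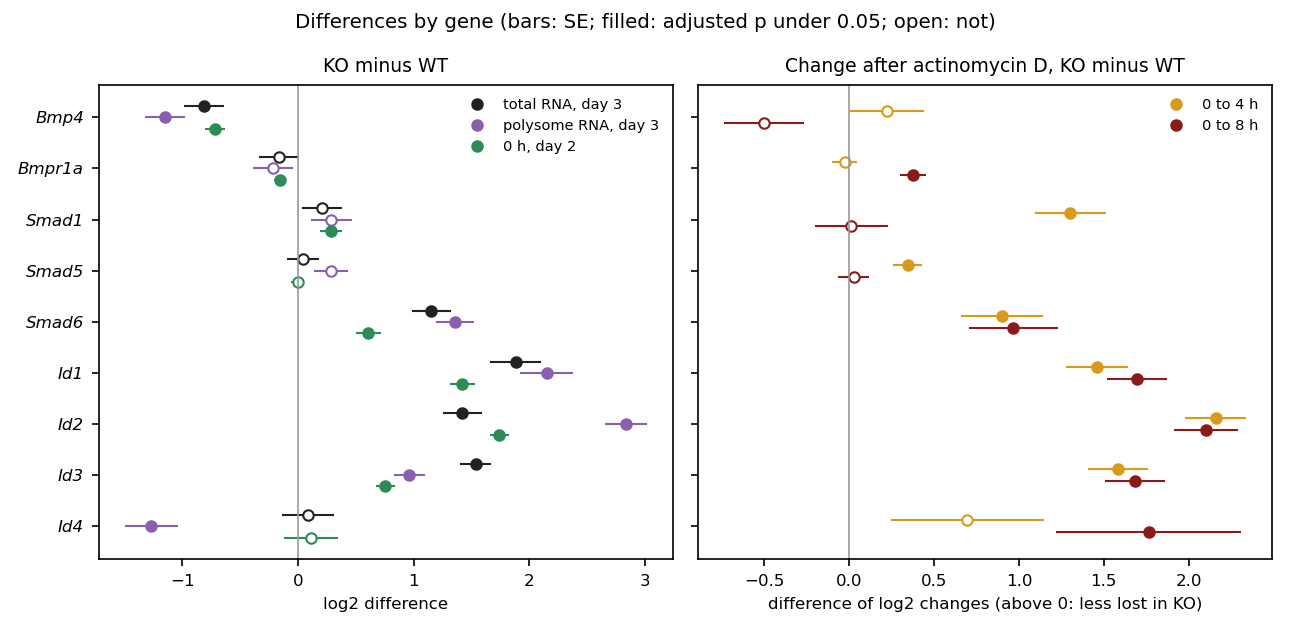
Left, log2 KO minus WT differences of the 9 genes in total RNA, in polysome RNA and at 0 h. Right, the log2 change after actinomycin D in KO minus that in WT over 0 to 4 h and 0 to 8 h. Bars are SE, and filled points have an adjusted p under 0.05. Id1, Id2 and Id3 lie to the right in both panels.

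After transcription was blocked, Id2 and Id3 RNA fell further in WT than in KO, and Id1 fell in WT while it hardly moved in KO. At 4 h Id3 had still fallen to 27.5% of its 0 h level in KO, against 9.05% in WT. Id2 had fallen to 52.4% in KO, against 11.8% in WT. Smad6 also fell less in KO, by a smaller difference between arms. For Bmp4, whose RNA was lost fast in both arms, the difference between arms did not pass. Losses are relative to the average transcript of a library, because total RNA also shrinks and CPM cannot show that. In WT all 9 members fell over 0 to 4 h, where 36.2% of all genes were called lower and 35% higher (71.2% together), and all 9 over 0 to 8 h, where 41.5% were lower and 37.8% higher (79.4% together). In KO all 9 fell over 0 to 4 h, where 33.6% of all genes were called lower and 30.5% higher (64.1% together). Of these KO calls, RLE scaling and DESeq2 did not make that of Id1, and DESeq2 did not make that of Id4 (-0.94, adjusted p = 0.0589). Over 0 to 8 h in KO, 8 of 9 fell (39.8%, 35.9% and 75.6%), Id1 being the one that did not. With ribosomal protein mRNAs as the scale, the median of all genes fell to -0.71 and -0.52 over 0 to 4 h in WT and KO and to -1.19 and -0.86 over 0 to 8 h. Calls of higher and lower then went from 5531 and 5731 to 137 and 11958 (WT, 0 to 4 h), from 4828 and 5312 to 76 and 11338 (KO, 0 to 4 h), from 5986 and 6571 to 323 and 13006 (WT, 0 to 8 h) and from 5677 and 6290 to 73 and 13012 (KO, 0 to 8 h). Library totals gave 3873 and 6850, 3594 and 6062, 4222 and 8135, and 4093 and 7339 in the same order, and for KO over 0 to 4 h RLE gave 6185 and 4537 and DESeq2 5437 and 3895. Median log2 changes over 0 to 8 h were -3.11 in WT and -1.39 in KO for the members, against -0.05 and -0.02 over all genes.

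The change was smaller in KO than in WT for 6 of 9 members over 0 to 4 h, where 13.5% of all genes passed in that direction (13.1% in the other, 26.5% together), and for 6 of 9 over 0 to 8 h, where 18.2% did (24.3% in the other, 42.4% together). RLE scaling moved the 0 to 4 h split from 2129 and 2069 calls (a higher and a lower log2 change in KO than in WT) to 3097 and 506, DESeq2 to 2443 and 343, library totals to 2787 and 929, and scaling to ribosomal protein mRNAs to 4054 and 194. Over 0 to 8 h the split of 2876 and 3838 moved to 3836 and 2257 with library totals, to 5341 and 809 with ribosomal protein mRNAs, to 2834 and 2290 in DESeq2, to 3345 and 2971 with RLE and to 1614 and 1389 with a straight line through the 3 times. The 6 members called over each interval kept their calls and direction under RLE, library totals and ribosomal scaling, and in DESeq2 except Id4 over 0 to 8 h, for which DESeq2 gave no adjusted p. With the straight line the 0 to 8 h calls of Id3 (1.95, edgeR adjusted p = 0.173) and Smad6 (1.18, 0.195) were lost. The members' median difference was 0.90 over 0 to 4 h and 0.97 over 0 to 8 h, against -0.04 and -0.11 over all genes.

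**Figure D3:**
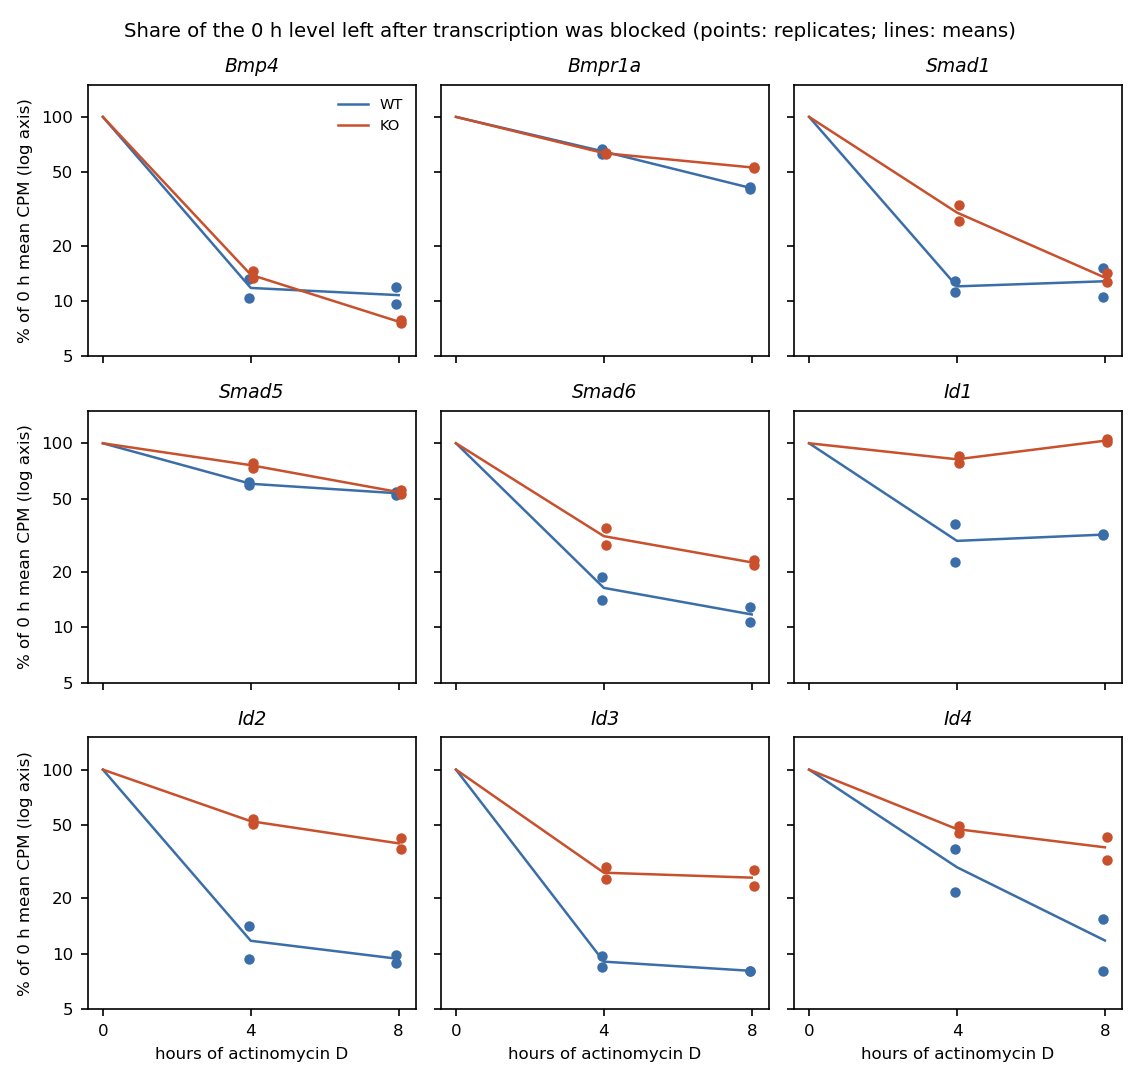
Percent of the mean 0 h CPM that was left at 4 and 8 h of actinomycin D in WT (blue) and KO (orange), on a log axis. Points are replicates and lines join their means. The KO line of Id2 stays at 39.8% at 8 h where the WT line is at 9.37%, while for Bmp4 the 4 h means are 11.8% in WT and 13.9% in KO.

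Bmp4 RNA was among the fastest lost. Its WT level went from 24.7 and 24.5 CPM to 3.23 and 2.56 at 4 h and 2.93 and 2.36 at 8 h, and its KO level from 14.5 and 15.4 to 1.98 and 2.17, then 1.17 and 1.14. At 4 h 11.8% ± 1.9 (SD, n = 2) was left in WT and 13.9% ± 0.9 in KO. The difference between arms did not pass over 0 to 4 h (0.22 ± 0.22 SE, edgeR adjusted p = 0.507) or 0 to 8 h (-0.50 ± 0.24, adjusted p = 0.0849). Both of its TATTTAT sites are printed above.

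Bmpr1a RNA was lost slowly. It went from 93.7 and 96.0 CPM to 59.7 and 63.2 at 4 h and 38.4 and 39.3 at 8 h in WT, and from 83.2 and 87.2 to 54.5 and 53.8, then 45.1 and 45.4 in KO. At 8 h 41.0% ± 0.6 (SD, n = 2) was left in WT and 53.2% ± 0.3 in KO, so that KO, lower at 0 h, was higher at 8 h. The 0 to 8 h change was smaller in KO by 0.38 ± 0.08 (log2, SE; edgeR adjusted p = 8.06e-05), whereas over 0 to 4 h the difference was -0.03 ± 0.07 (adjusted p = 0.852).

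Smad1 RNA fell fast in both arms but with a different course. In WT it stood at 1.69 and 1.92 CPM at 4 h and 2.27 and 1.57 at 8 h, and in KO at 4.98 and 6.07, then 2.31 and 2.59. Thus 12.003% ± 1.1 (SD, n = 2) was left in WT at 4 h against 30.2% ± 4.2 in KO, while at 8 h the shares were 12.8% ± 3.3 and 13.4% ± 1.1. The difference between arms was 1.30 ± 0.21 (log2, SE; edgeR adjusted p = 4.98e-06) over 0 to 4 h and 0.01 ± 0.21 (adjusted p = 0.98) over 0 to 8 h. Smad5 showed the same pattern at a smaller size, with 60.2% ± 1.7 left in WT and 76.0% ± 3.3 in KO at 4 h, and 53.5% ± 1.4 and 54.3% ± 1.6 at 8 h. The Smad5 difference over 0 to 4 h was 0.34 ± 0.09 (SE, edgeR adjusted p = 0.00259). Over 0 to 8 h it was 0.03 ± 0.09 (edgeR adjusted p = 0.85). With ribosomal protein mRNAs as the scale, however, the Smad5 0 to 8 h difference was 0.33 and passed (edgeR adjusted p = 0.0036).

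Smad6 was at 1.11 and 1.48 CPM at 4 h in WT and at 3.38 and 4.15 in KO. At 8 h it was at 0.84 and 1.01 CPM in WT and at 2.79 and 2.64 in KO. Shares left were 16.4% ± 3.3 (SD, n = 2) in WT and 31.3% ± 4.5 in KO at 4 h, and 11.7% ± 1.5 and 22.5% ± 0.9 at 8 h. The log2 difference of 0.90 ± 0.24 (SE) over 0 to 4 h passed (edgeR adjusted p = 0.00402), but not without 4 h WT replicate 1 (0.0651). That of 0.97 ± 0.26 over 0 to 8 h passed (0.00255), but not without 8 h WT replicate 1 (0.0669).

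Id1 fell in WT from 28.0 and 24.3 CPM at 0 h to 9.5 and 5.90 at 4 h and 8.24 and 8.43 at 8 h. In KO it started at 66.7 and 72.9 and stood at 54.5 and 59.7, then at 70.6 and 73.5. So 31.9% ± 0.5 (SD, n = 2) of the 0 h level was left in WT at 8 h and 103.2% ± 2.9 in KO, and the KO to WT ratio widened from 2.67 to 8.64. The 0 to 8 h change in KO was 0.05 ± 0.10 (log2, SE; edgeR adjusted p = 0.678), and with ribosomal protein mRNAs as the scale it was -0.80 (adjusted p = 1.48e-07). Over 0 to 4 h it was -0.30 ± 0.10 (edgeR adjusted p = 0.0228), a call lost without 0 h KO replicate 2 (0.156), 4 h KO replicate 1 (0.137) or either 8 h KO library (0.0527 and 0.0515). RLE scaling (-0.17, edgeR adjusted p = 0.173) and DESeq2 (-0.16, adjusted p = 0.434) also ended that call. The difference between arms was 1.46 ± 0.18 over 0 to 4 h (edgeR adjusted p = 0.000113) and 1.69 ± 0.18 over 0 to 8 h (adjusted p = 9.18e-06).

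Id2 showed the largest difference in loss of the 9. In WT it fell from 12.9 and 14.4 CPM to 1.93 and 1.28 at 4 h and 1.21 and 1.35 at 8 h. In KO it fell from 46.4 and 44.9 to 24.6 and 23.2, then to 19.3 and 17.0. At 4 h 11.8% ± 3.4 (SD, n = 2) was left in WT and 52.4% ± 2.2 in KO, and the KO to WT ratio went from 3.34 at 0 h to 14.9 at 4 h and 14.2 at 8 h. The difference between arms was 2.16 ± 0.18 (log2, SE; edgeR adjusted p = 1.18e-12) over 0 to 4 h and 2.10 ± 0.19 (adjusted p = 2.84e-12) over 0 to 8 h.

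Id3 had the steepest loss of the 9 in WT. It fell there from 25.3 and 23.7 CPM to 2.36 and 2.07 at 4 h and 1.98 and 1.97 at 8 h, and in KO from 39.2 and 43.4 to 10.5 and 12.2, then to 11.7 and 9.63. At 4 h 9.05% ± 0.86 (SD, n = 2) was left in WT and 27.5% ± 2.8 in KO. The difference between arms was 1.58 ± 0.18 (log2, SE; edgeR adjusted p = 2.53e-09) over 0 to 4 h and 1.68 ± 0.18 (adjusted p = 1.72e-10) over 0 to 8 h. Most of the loss had taken place by 4 h in both arms. Id3, with no ATTTA in its 3′ UTR, and Bmp4, with 2 TATTTAT, were both lost fast in WT, and the part of these motifs was not tested.

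Id4 rested on few reads, 4 and 5 counts in the 8 h WT libraries. It was at 0.675 and 0.394 CPM at 4 h in WT and 0.972 and 0.894 in KO, then at 0.147 and 0.281 in WT and 0.850 and 0.636 in KO. The 0 to 8 h difference of 1.76 ± 0.54 (log2, SE) passed (edgeR adjusted p = 0.00764), but not without 8 h KO replicate 1 (0.0595) or 8 h WT replicate 1 (0.132). Over 0 to 4 h it did not (0.70 ± 0.45, edgeR adjusted p = 0.282).

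The other genes of the pathway, 55 in 6 role lists, moved in both directions. In total RNA 9 of the 45 tested were higher in KO and 4 lower, where 16% and 12.2% of all genes were. In polysomes 12 were higher and 9 lower (15.9% and 21.1% of all genes). At 0 h 11 of 40 were higher and 13 lower (29.8% and 32.9% of all genes). For 7 of 40 the log2 change over 0 to 4 h of actinomycin D was higher in KO (13.5% of all genes). It was lower for 4 (13.1%). Over 0 to 8 h it was higher for 6 and lower for 10 (18.2% and 24.3% of all genes). A lower change is not always a larger loss: Bmp1 rose relative to the average transcript by 1.51 in WT and 0.76 in KO over 0 to 8 h, Chrd by 1.31 and 0.80, and Dusp9 by 1.19 and 0.56. These shares of all genes also apply to the counts by role below.

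Of 6 ligands tested in total RNA, Bmp7 and Bmp8b were higher, Bmp8b losing its call without any of 4 libraries (edgeR adjusted p up to 0.221, without total WT replicate 1). Bmp7, another BMP ligand, went from 3.41 and 2.93 CPM in WT to 10.0 and 9.65 in KO (log2 1.63 ± 0.23 SE, edgeR adjusted p = 0.000833) while Bmp4 fell. It was also higher at 0 h, by 1.499 ± 0.11. Of 9 receptors and co-receptors, Acvrl1 and Eng were higher and Acvr2b lower (lost without any of 4 libraries, edgeR adjusted p up to 0.120). Acvrl1, a type I receptor for BMP9 and BMP10, went from 1.90 and 1.246 CPM to 4.98 and 5.16 (log2 1.68 ± 0.26 SE). Endoglin (Eng), its co-receptor, rose by 0.87 ± 0.19, and by 1.07 ± 0.05 at 0 h; its total RNA call was lost without any of 4 libraries (adjusted p up to 0.131, without total WT replicate 1). In polysomes the type I receptor Bmpr1b fell by 1.54 on the log2 scale.

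Among 13 secreted modulators tested, Bmp1, a protease that cleaves the antagonist chordin, was the one called in total RNA, at 1.60 ± 0.32 (log2, SE; edgeR adjusted p = 0.00553), a call lost without total WT replicate 1 (0.0825). Among 9 intracellular genes, Smad9, a further transducer, was higher (lost without any of 6 libraries, up to 0.274) and Smad7 and Skil, both inhibitors, were lower (Smad7 lost without total KO replicate 1, 0.0564), Skil by -1.08 ± 0.20 (edgeR adjusted p = 0.00322). Of 5 other reported BMP targets tested, Msx1 and Msx2 were higher (Msx1, below the level set for naming, was named after its values were seen). Msx2, a homeobox gene, went from 2.28 and 2.41 CPM to 8.50 and 9.14 (log2 1.91 ± 0.25 SE, edgeR adjusted p = 0.000573). Of the 3 E proteins that ID proteins bind, Tcf4 was lower, from 67.5 and 65.9 CPM to 33.6 and 33.6 (log2 -0.99 ± 0.13 SE, edgeR adjusted p = 0.000562), and Tcf12 higher, by 0.62 ± 0.14, a call lost without any of 4 libraries (up to 0.160, without total WT replicate 1).

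**Figure D4:**
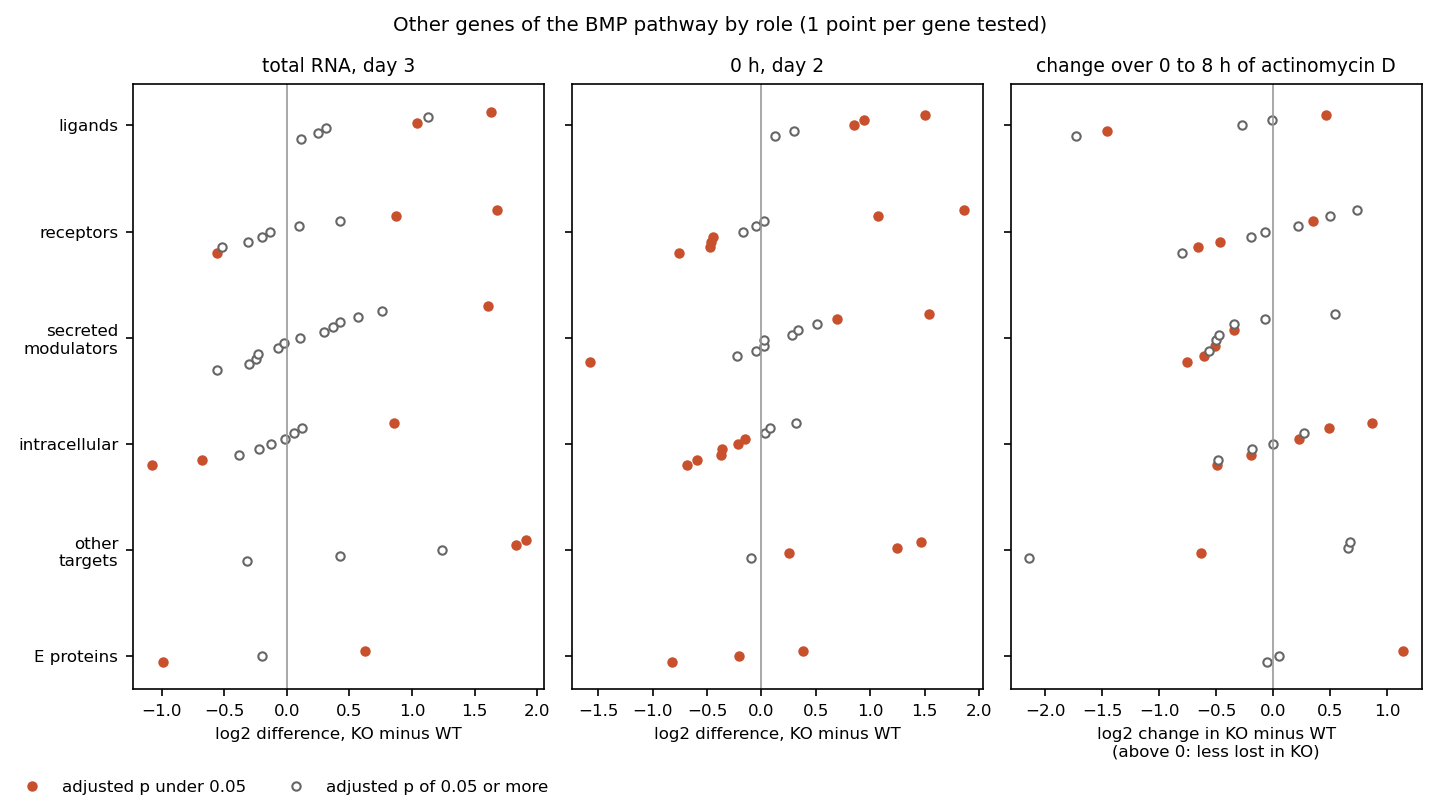
Log2 differences of the other pathway genes tested, by role, in total RNA on day 3, at 0 h on day 2 and in the change over 0 to 8 h of actinomycin D. Each point is 1 gene, staggered by rank within its role, and filled points have an adjusted p under 0.05. Genes of most roles fall on both sides of 0, for instance Bmp1 at 1.60 and Skil at -1.08 in total RNA.

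The genes whose log2 CPM pattern over the 20 libraries, centred within each experiment, was most like that of each raised Id gene were found among 9450 genes. They were Hmox1 (Pearson r = 0.975), Baiap2 (0.974), Arfgap3 (0.967) and Plcd3 (0.965) for Id1. For Id2 they were Kif18b (0.984), Spata5 (0.981), Mastl (0.974) and BC030867 (0.973), and for Id3 Arhgap27 (0.982), Ighmbp2 (0.982), Ppm1d (0.978) and Mrm3 (0.976). Among the members themselves, r was 0.972 for Id3 and Smad6, 0.950 for Id1 and Id2, and -0.07 for Id1 and Bmp4. The libraries share the KO and time contrasts, so these values describe likeness of pattern and carry no test.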

How the data were processed

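RNA of 20 libraries (10 groups of 2) was analysed from deposited read counts per Ensembl gene. Per the submitters' processing notes, the authors used STAR 2.3.0e, HTSeq and the mm9 genome, with no HTSeq version; neither the annotation release nor the strand setting is stated. Rows of reads that HTSeq assigned to no gene were left out of the levels and tests. They served only for the shares of such reads given at the start. Symbols came from GENCODE M21 by gene ID (32919 of 37991 IDs matched).

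Counts were filtered with filterByExpr (minimum count 10), scaled by TMM and fitted with the quasi-likelihood test of edgeR 4.0.16 (limma 3.58.1, R 4.3.3), after a check on simulated counts. The 8 day 3 libraries shared 1 fit, the 12 of the actinomycin D series another, and day 3 was set against day 2 in another. P-values were adjusted by Benjamini-Hochberg over all genes tested, with a threshold of 0.05. Each SE of a log2 difference is its absolute value over the square root of the F statistic of its test. It thus uses the spread of the whole fit and not of the compared replicates alone. CPM are TMM-scaled; shares of the 0 h level divide each library by the mean of its arm at 0 h, so their SD leaves out the spread at 0 h. Tables and figures were made with Python 3.11.15, pandas 2.3.3 and matplotlib 3.10.9. The 3′ UTR comparison used 20979 transcripts.

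The members and lists were chosen with earlier results of these data known. Other pathway genes named are at most 3 per role and comparison, with an adjusted p under 0.05, an absolute log2 change of at least 0.5 and an average log2 CPM of at least 1; others named to account for a small count were chosen after their values were seen. Genes most like an Id gene are the 4 with the highest r (prior count 2, average log2 CPM of at least 3). Alternatives were RLE scaling, library totals alone, scaling to 82 ribosomal protein mRNAs, no filter, DESeq2 1.42.0, only the 4 libraries compared, a straight line over time, a replicate block and leaving out each library.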

Additional observations from a re-analysis of the deposited data

Results flagged for a closer look

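These results are listed because the KO and WT changes, or the day 3 and day 2 differences, differed by a test of that difference (edgeR quasi-likelihood, Benjamini-Hochberg adjusted p under 0.05). Values are log2, the change in KO minus that in WT. All the BMP pathway and Id members listed fell in WT, so for them a value above 0 means less loss in KO, whereas Bmp1, Chrd and Dusp9 rose relative to the average transcript in both arms, so their negative values are smaller rises in KO. Over 0 to 4 h of actinomycin D the difference was 1.30 for Smad1, 0.34 for Smad5, 0.90 for Smad6, 1.46 for Id1, 2.16 for Id2 and 1.58 for Id3. Among the other pathway genes it was 1.17 for Bambi, a decoy receptor, -0.65 for Bmp1, 0.60 for Bmp7, 1.16 for Hey1 and 0.55 for Tcf12. Bambi lost its call without any of 6 of the 12 libraries (adjusted p up to 0.273), Bmp1 without any of 4 (up to 0.197) and Bmp7 without any of 3 (up to 0.142), by edgeR.

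Over 0 to 8 h the difference was 0.38 for Bmpr1a, 0.97 for Smad6, 1.69 for Id1, 2.10 for Id2, 1.68 for Id3 and 1.76 for Id4. Among the other pathway genes it was -0.66 for Acvr1, a type I receptor, -0.75 for Bmp1, -0.51 for Chrd, which encodes the antagonist chordin, -0.60 for Crim1, -0.64 for Dusp9, 0.87 for Smad4, the shared partner of SMAD1 and SMAD5, and 1.14 for Tcf12. Acvr1 lost its call without any of 4 of the 12 libraries (adjusted p up to 0.111), Chrd without any of 7 (up to 0.288) and Crim1 without any of 4 (up to 0.140), by edgeR.

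The KO to WT difference was larger on day 3 than on day 2 by 0.58 for Smad6, 0.49 for Id1 and 0.82 for Id3. The Smad6 call was lost with no filter and in DESeq2.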

How the results depend on the processing

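Of 1644 alternative values of the 9 genes, 1533 kept direction and side of the threshold, 29 lost a call, 21 gained one, 59 uncalled values moved and 2 reversed. The reversed values were 0.15 for Smad5 at 0 h with library totals and -0.80 for Id1 over 0 to 8 h in KO with ribosomal scaling. That scaling also reversed Chrd (-0.012 in KO and -0.0019 in WT over 0 to 4 h, -0.045 in KO over 0 to 8 h), Bmp1 (-0.085), Dusp9 (-0.28) and Bmp8b (-0.21) over 0 to 8 h in KO, and Bmp8b in WT (-0.50). For polysome association (2 genes called), DESeq2 called 67 genes and no filter 40, each with 1 member higher. Leaving out 1 library gave 0 to 4959 genes, 0 to 2 members higher and 0 to 3 lower. For day 3 against day 2 (921 genes), DESeq2 called 509, and no filter 1582 with 1 member lower; leaving out a library gave 434 to 1664 genes and 0 to 1 members lower. At 0 h, library totals left 1 member lower, and leaving out a library 1 to 2. For the loss difference, DESeq2 called 2786 genes over 0 to 4 h (4198) and the straight line 3003 over 0 to 8 h (6714). With only the 4 libraries compared, 3287 genes were called in polysomes (6763) and 10936 in total RNA (5156), with 2 members lower. Leaving out a library gave 3480 (without polysome KO replicate 2) to 9406 genes in polysomes, and 1289 (without total WT replicate 1) to 9522 in total RNA with 0 to 2 members lower. The cause of these shifts was not tested. Same-numbered WT and KO replicates deviated together with r of 0.33 in total RNA and 0.29 in polysomes. At 0, 4 and 8 h r was 0.07, -0.04 and 0.05. For total against polysome RNA r was 0.31 in KO and -0.05 in WT. The day 3 libraries thus deviated together in part, but the labels tie no batch to the number and 2 replicates cannot establish a pairing. The replicate block called 5445 genes in total RNA, 7014 in polysomes, 2 for association, 9956 at 0 h, 4272 and 6731 for the loss differences and 1062 for day 3 against day 2, and changed 0 of 99 member calls. Depth limits Id4 most.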
